A study of Rattus norvegicus with 12 samples.

Results

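The mitochondrial ribosomal protein genes were measured in the hypothalamic arcuate nucleus (ARC), the part of the hypothalamus that regulates energy balance, of recuperated and control male Wistar rats. Members were all genes with a probe set on the array whose only platform symbol begins with Mrpl or Mrps and a number, and each was represented by its brightest probe set, the one with the highest mean over all 12 arrays. This gave 97 probe sets and 73 genes, 46 named Mrpl and 27 named Mrps, of the 14217 symbols that a probe set carried alone. Mrpl9, Mrpl11, Mrpl24, Mrps10 and Mrps36 had no probe set of their own symbol alone and were not analysed here.

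Recuperated rats were born to dams that ate a diet low in protein (8%) in pregnancy, and were nursed from postnatal day 3 by control dams in litters culled to fewer pups. Control rats were male offspring of control dams suckled by control dams. Recuperated litters were culled to males only, and control litters to both sexes. The groups thus differed at least in maternal diet, in nursing by dams of another diet group, and in the size and sexes of the litter. All rats ate standard chow after weaning and were 3 months old. The ARC was cut from stained frozen sections with a laser, and its RNA was amplified and hybridised to an Affymetrix rat genome array. Each group had 6 arrays, for which the study counts litters as n. The number of rats per array was not stated. The 6 recuperated and 6 control samples were made up of mixed cells, so fewer cells of a type and less RNA per cell cannot be told apart.

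Mitochondria have ribosomes of their own, which make a small set of membrane proteins of the respiratory chain and the ATP synthase from messages of mitochondrial DNA. The RNA of these ribosomes is mitochondrial, but every protein of the large (Mrpl) and small (Mrps) subunit is encoded in the nucleus, made in the cytosol and imported. Some of these proteins have counterparts in bacteria and others are found only in mitochondrial ribosomes, and by structure Mrps18a and Mrps30 belong to the large subunit in spite of their symbols.

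Promoters are shown for the members with the most positive and the most negative difference between groups (Mrpl42 and Mrpl45), for a member with several matches to the NRF1 motif (Mrpl17), and for 2 stretches that lie between genes starting head to head. Sequences are from RefSeq on the rat build GRCr8, 5′ to 3′ towards the start of the first gene named, and capitals mark matches to the motif GCGCATGC of NRF1, a nuclear factor known for activating genes of mitochondrial proteins. The stretches are the bases before the start of Mrpl42 (chr7:32028523-32028772, minus strand), Mrpl45 (chr10:82804789-82805038, plus strand) and Mrpl17 (chr1:169575700-169575949, minus strand), those between Mrpl46 and Mrps11 (chr1:142117031-142117263, minus strand), and those between Mrpl32 and Psma2 (chr17:55260442-55260650, plus strand).
Mrpl42: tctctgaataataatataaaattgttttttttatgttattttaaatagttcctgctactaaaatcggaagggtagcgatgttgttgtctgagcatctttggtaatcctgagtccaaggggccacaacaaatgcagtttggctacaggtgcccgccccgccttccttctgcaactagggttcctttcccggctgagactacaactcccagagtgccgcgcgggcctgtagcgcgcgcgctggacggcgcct
Mrpl45: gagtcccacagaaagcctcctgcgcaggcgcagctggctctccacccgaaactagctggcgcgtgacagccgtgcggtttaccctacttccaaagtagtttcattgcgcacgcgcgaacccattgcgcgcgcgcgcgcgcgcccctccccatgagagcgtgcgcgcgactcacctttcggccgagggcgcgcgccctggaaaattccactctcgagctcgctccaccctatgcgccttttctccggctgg
Mrpl17: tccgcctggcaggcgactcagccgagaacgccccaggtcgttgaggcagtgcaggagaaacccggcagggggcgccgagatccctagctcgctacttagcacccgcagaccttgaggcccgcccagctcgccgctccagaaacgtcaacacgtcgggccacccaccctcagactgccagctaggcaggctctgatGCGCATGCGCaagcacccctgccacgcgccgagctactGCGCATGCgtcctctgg
Mrpl46-Mrps11: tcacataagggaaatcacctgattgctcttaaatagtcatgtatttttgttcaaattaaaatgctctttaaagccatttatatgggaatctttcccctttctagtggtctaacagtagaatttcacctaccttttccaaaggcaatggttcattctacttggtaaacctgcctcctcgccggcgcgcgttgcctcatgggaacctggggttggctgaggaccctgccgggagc
Mrpl32-Psma2: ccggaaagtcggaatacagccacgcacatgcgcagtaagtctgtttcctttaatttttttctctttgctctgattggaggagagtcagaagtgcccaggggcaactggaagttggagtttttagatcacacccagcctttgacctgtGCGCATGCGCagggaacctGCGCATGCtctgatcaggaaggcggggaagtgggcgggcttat

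Between recuperated and control rats, 0 of the 73 members were higher and 0 were lower at 1.3-fold with P under 0.05, the threshold named in the study's methods. Over all 31042 probe sets tested with limma, 1.2% were higher and 1.27% lower at that threshold. By limma, 1 member (Mrpl42) had an unadjusted P under 0.05, against 3.45% of all probe sets. By the methods' t-test 2 members had (Mrpl42 and Mrpl53), against 1063 of all 31042 probe sets. No member had an adjusted p under 0.05 by limma, as for 0% of all probe sets. Ranges of the recuperated and control arrays overlapped for all 73 members, and 0.119% of all probe sets had ranges apart. Most members thus showed small differences, from -0.31 (Mrpl45) to 0.33 (Mrpl42) on the log2 scale, recuperated minus control, after the median of each array was subtracted.

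The sign was mostly negative. Lower mean values in recuperated rats were found for 56 of 73 members, 36 of 46 Mrpl genes and 20 of 27 Mrps genes, where 56.6% of all probe sets and 60.3% of the brightest probe sets of all symbols were negative. The median log2 difference was -0.06 over the members, -0.03 over all probe sets and -0.04 over the brightest probe sets of all symbols. For 29 members (39.7%), 16 Mrpl and 13 Mrps, the 95% interval lay within 1.3-fold either way, against 19.6% of all probe sets and 24.0% of the brightest of all symbols. Mrps25 and Mrps26 are examples, with log2 differences of -0.01 (interval -0.22 to 0.20) and -0.04 (interval -0.25 to 0.18). The intervals of the other members reached past 1.3-fold, so that a change of that size was neither shown nor bounded for those genes.

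**Figure D1:**
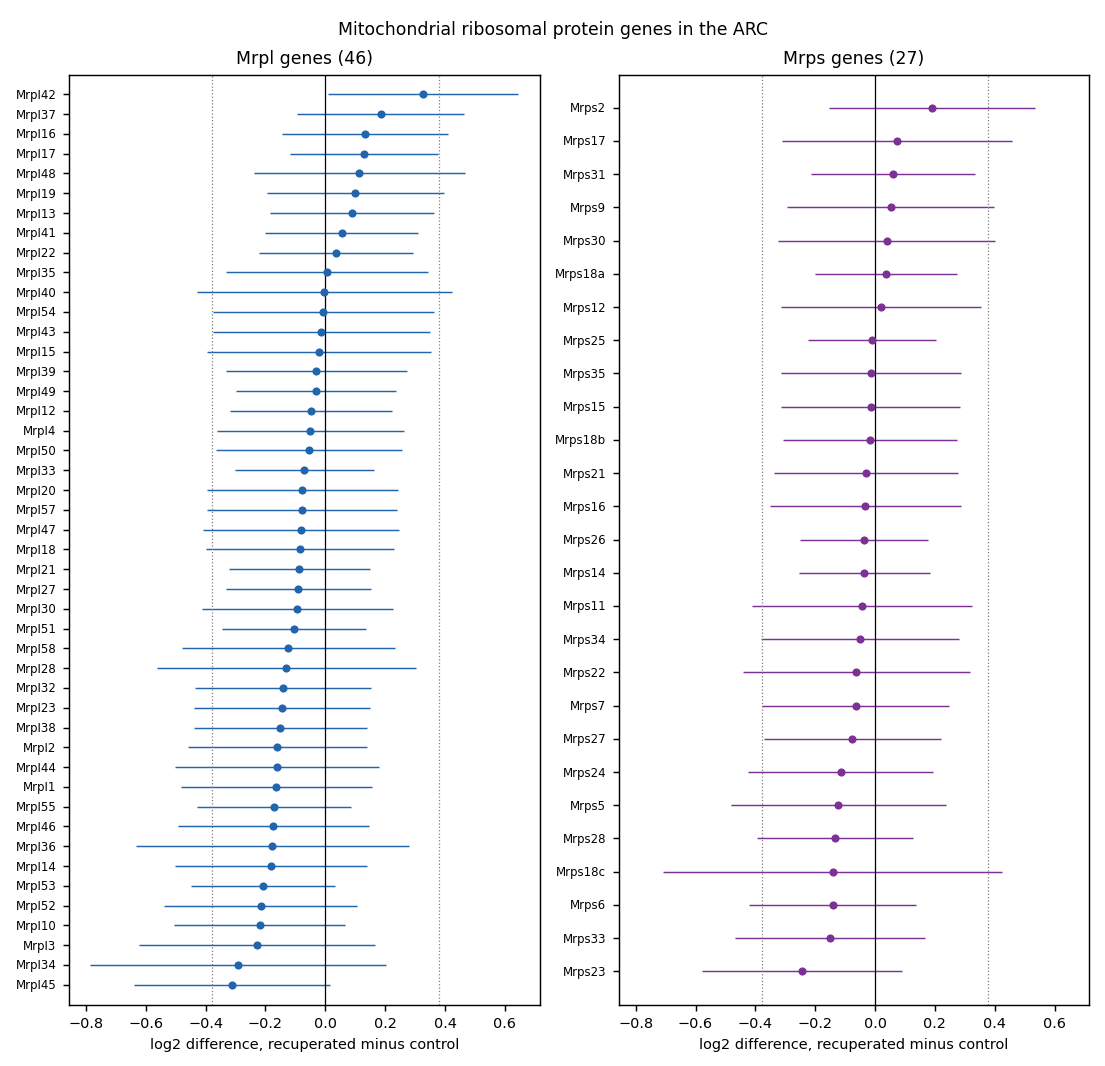
Log2 difference (recuperated minus control, n = 6 each) of each mitochondrial ribosomal protein gene on the x axis, with its 95% interval from limma, for 46 Mrpl genes (left) and 27 Mrps genes (right) ordered by size. Dotted lines mark 1.3-fold either way. No point lies beyond them, and the interval of Mrpl42 alone does not reach 0.

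Mrpl42, which encodes a protein of the large subunit without a bacterial counterpart, was the member with the highest log2 difference. On the log2 RMA scale its lowest, median and highest values were 10.14, 10.31 and 10.63 in recuperated arrays and 9.64, 10.08 and 10.42 in control arrays. Recuperated arrays 2 and 6 were above every control array, control arrays 1, 5 and 6 were below every recuperated array, and the rest overlapped. Means were 10.36 ± 0.18 in recuperated and 10.01 ± 0.30 in control arrays (SD, n = 6 each). The fitted log2 difference was 0.33 ± 0.15 (SE), which is 1.25-fold. The p was 0.0448 by limma before adjustment and 0.999 after it, and 0.0498 by the exact two-sided permutation test. The limma p was over 0.05 when any 1 of 8 arrays was left out (control 1, 5 or 6; recuperated 1, 2, 4, 5 or 6), the highest being 0.105 without control 5.

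Mrpl45 had the most negative log2 difference. It encodes a large-subunit protein that sits at the tunnel through which the new chain leaves and helps to hold the ribosome at the inner membrane. Its lowest, median and highest log2 values were 8.01, 8.67 and 8.76 in recuperated arrays and 8.62, 8.78 and 8.92 in control arrays. Recuperated arrays 4 and 5 (8.01 and 8.10) were below every control array, and the other 4 lay among the controls. The difference was -0.31 ± 0.15 (SE), with a p of 0.0604 by limma and 0.0541 by the exact permutation test.

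Bacterial-type large-subunit members stood next to it. Mrpl34, a small basic protein of the large subunit, had lowest, median and highest values of 8.16, 8.80 and 9.71 in recuperated arrays and 8.81, 9.15 and 9.61 in control arrays. Its recuperated arrays held both the highest (array 1) and the lowest (array 4) value of all 12, and the difference was -0.29 ± 0.23 (SE, limma p = 0.226, exact permutation p = 0.273). Without recuperated array 1 it was the only member past the threshold, at -0.46.

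Mrpl3, a core protein near the peptidyl transferase centre, ranged over 8.27, 9.26 and 9.38 (lowest, median and highest) in recuperated arrays and 9.01, 9.26 and 9.68 in control arrays. The medians were alike, and the difference of -0.23 ± 0.18 (SE, limma p = 0.237, exact permutation p = 0.316) went with 1 low recuperated array, number 5. Mrpl10, a protein at the base of the stalk that recruits elongation factors, had 8.32, 9.02 and 9.08 in recuperated arrays and 8.94, 9.12 and 9.18 in control arrays. Recuperated arrays 4 and 5 (8.81 and 8.32) were below every control array, and the difference was -0.22 ± 0.13 (SE), with a p of 0.122 by limma and 0.0325 by the exact permutation test. For Mrpl52, a mitochondria-specific protein of the large subunit, the difference was -0.22 ± 0.15 (SE, limma p = 0.17, exact permutation p = 0.158). Mrpl53, also mitochondria-specific, had 9.27, 9.48 and 9.62 in recuperated arrays and 9.42, 9.65 and 9.75 in control arrays. These were overlapping ranges with little spread, and the difference was -0.21 ± 0.11 (SE), with a p of 0.0847 by limma and 0.026 by the exact permutation test.

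Among the Mrps genes, Mrps23 had the most negative and Mrps2 the most positive difference. Mrps23, a mitochondria-specific protein, had lowest, median and highest values of 8.24, 8.93 and 9.19 in recuperated arrays and 8.84, 9.09 and 9.28 in control arrays. Recuperated arrays 5 and 4 (8.24 and 8.67) were again the lowest, and the difference was -0.25 ± 0.16 (SE, limma p = 0.139, exact permutation p = 0.143). Mrps33 (-0.15), Mrps6 and Mrps18c (both -0.14) and Mrps28 (-0.13) came next in order, each with a limma p over 0.29. Mrps2, a bacterial-type protein of the small subunit, had 10.51, 10.73 and 11.15 in recuperated arrays and 10.10, 10.69 and 10.82 in control arrays. Here recuperated arrays 4 and 5 (11.15 and 11.00) were the highest of all 12, the opposite of Mrpl45, Mrpl10 and Mrps23, and the difference was 0.19 ± 0.16 (SE, limma p = 0.252, exact permutation p = 0.255).

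**Figure D2:**
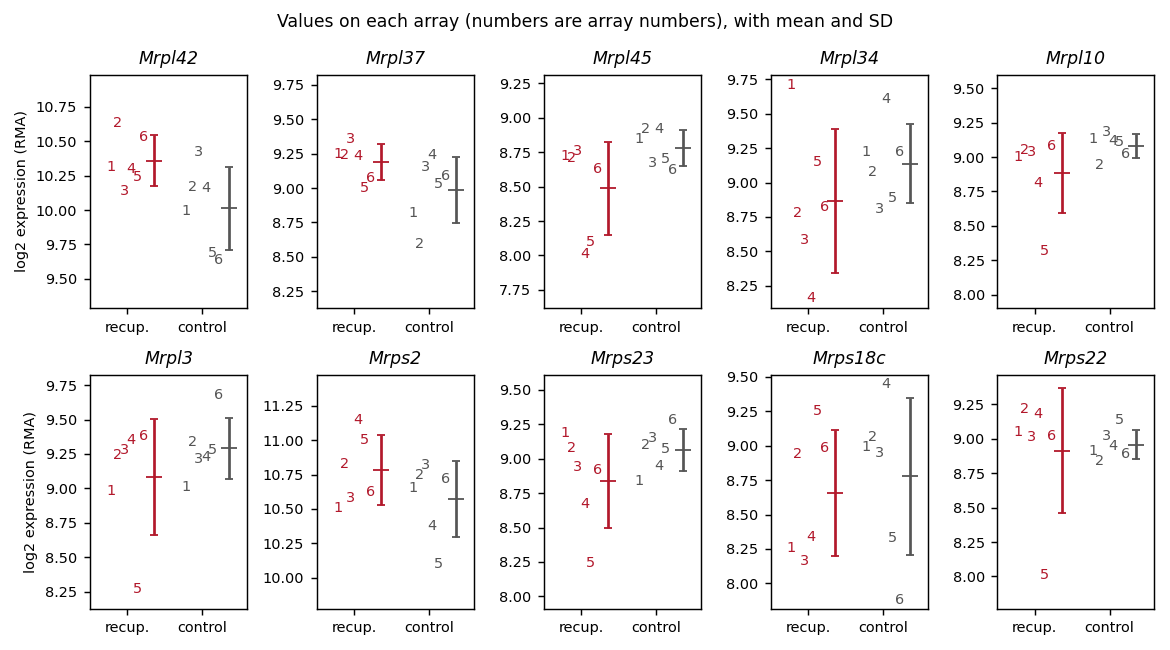
Log2 expression (RMA) on each array for 10 mitochondrial ribosomal protein genes, with recuperated arrays left of control arrays in each panel. Numbers are array numbers, and bars are the mean and SD (n = 6). Recuperated arrays 4 and 5 are the lowest for Mrpl45 and Mrps23 and the highest for Mrps2.

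The remaining positive differences were smaller. Mrpl37, a mitochondria-specific large-subunit protein, averaged 9.19 ± 0.13 in recuperated and 8.99 ± 0.24 in control arrays (SD, n = 6 each), a fitted difference of 0.19 ± 0.13 (SE). Differences of 0.13 were found for Mrpl16, a bacterial-type protein beside the tRNA sites, and for Mrpl17, a protein near the exit of the tunnel, and Mrpl48, of the central protuberance, had 0.11. Mrps17, Mrps31, Mrps9, Mrps30 and Mrps18a lay between 0.04 and 0.07. All had a limma p over 0.17, and none of these genes can be ordered against its neighbours beyond its SE.

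Members differed in their spread within groups. The pooled within-group SD over arrays had a median of 0.24 log2 units over the members and 0.29 over the brightest probe sets of all symbols. This SD had a median of 0.17 over cytosolic ribosomal proteins and 0.17 over subunits of oxidative phosphorylation. Among the Mrps genes it was smallest for Mrps26 (0.0887) and Mrps25 (0.0926), both mitochondria-specific, and among the Mrpl genes for Mrpl33 (0.127) and Mrpl21 (0.132), both bacterial-type. It was largest for Mrps18c (0.515) and Mrps22 (0.328) among the Mrps genes and for Mrpl34 (0.423) and Mrpl36 (0.393) among the Mrpl genes. Mrps18c, the closest of the Mrps18 genes to the bacterial protein, ranged over 8.16, 8.64 and 9.25 (lowest, median and highest) in recuperated arrays and 7.88, 8.97 and 9.45 in control arrays, so that both groups were spread over more than 1 log2 unit. Mrps22, mutated in human mitochondrial disease of infancy, was spread because recuperated array 5 (8.01) lay far below the other 11, which were between 8.84 and 9.22.

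Large and small subunits were set side by side. The median log2 difference was -0.08 over the 46 Mrpl and -0.04 over the 27 Mrps genes. It was the same to this precision when Mrps18a and Mrps30 were moved to the large subunit, where they belong by structure (48 and 25 genes). Bacterial-type large-subunit members had a median of -0.09 (21 of 27 negative) and mitochondria-specific ones -0.06 (15 of 19). In the small subunit, bacterial-type members had -0.04 (11 of 15) and mitochondria-specific ones -0.04 (9 of 10). Within each array the median deviation of Mrpl genes minus that of Mrps genes was 0.01 ± 0.04 in recuperated and 0.02 ± 0.02 in control arrays (SD, n = 6 each), with overlapping ranges, so the subunits lay close together on each array.

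The level of both subunits was lowest on the same arrays. Deviations were taken from each gene's mean over the 12 arrays, and their median over the Mrpl genes was -0.14 on recuperated array 4 and -0.18 on recuperated array 5, between 0.01 and 0.09 on the other 4 recuperated arrays, and between -0.00 and 0.07 on the 6 control arrays. Over the Mrps genes the same arrays had -0.15 and -0.16, the other recuperated arrays -0.02 to 0.10, and control arrays -0.02 to 0.07. Of the 73 members, 22 had their lowest value on recuperated array 5 and 16 on recuperated array 4, followed by control array 5 with 12. The share of all probe sets that were lowest on each array was not taken, so these counts show no trait particular to the members. Array weights, fitted with limma over all probe sets, were also lowest for recuperated arrays 4 and 5 (0.54 and 0.57). By the medians above, none of the other 4 recuperated arrays lay below the lowest control array, though array 6 (0.01 and -0.02) was near the low end of the controls. Recuperated arrays 4 and 5 were set apart here after their values were seen, and no control array was. This is therefore no comparison of the groups.

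**Figure D3:**
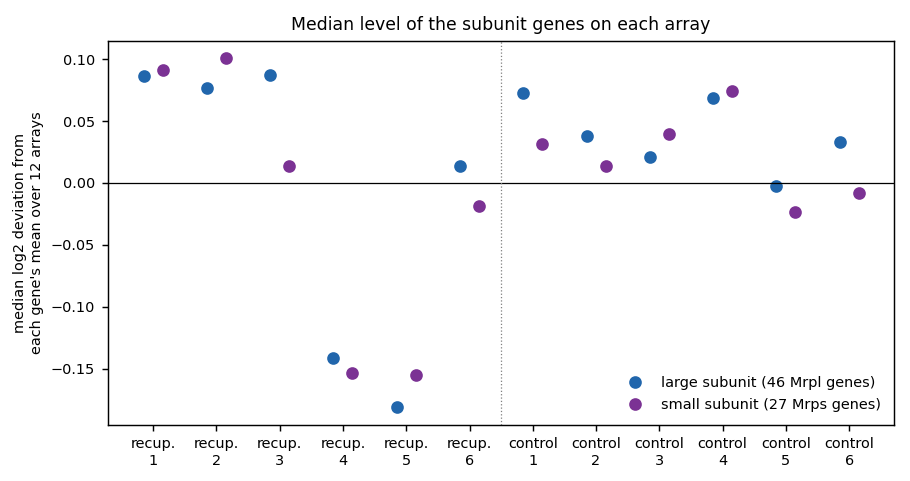
Median deviation of Mrpl genes (46) and Mrps genes (27) from each gene's mean over the 12 arrays, in log2 units, on each recuperated (left) and control (right) array. Recuperated arrays 4 and 5 lie between -0.14 and -0.18, and all other arrays between -0.02 and 0.10.

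The sign counts rested in part on these arrays. Leaving out recuperated array 4, 45 of 73 members (61.6%) and 56.3% of all probe sets were negative, and the medians were -0.06 for Mrpl and -0.00 for Mrps genes. Leaving out recuperated array 5, 43 members (58.9%) and 57.3% of all probe sets were negative, again with medians of -0.06 and -0.00, so the members' share was close to that of all probe sets. The median correlation between members over arrays, taken on deviations from the group means over 2628 pairs of genes, was 0.19 with all 12 arrays, 0.16 without recuperated array 4, 0.13 without array 5 and 0.04 without both, a pair left out after its values were seen. With all arrays it was 0.19 within the large subunit, 0.17 within the small and 0.20 between them, so these values lay close together within and between subunits. The pairs share arrays and genes, and these values are a description.

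Recuperated array 4 also stood apart in the tissue it held. The mean of 9 measured ARC neuron markers (of 11 listed) above the array median was 1.08 log2 units there, against 3.29 to 3.66 on the other recuperated and 3.39 to 3.60 on the control arrays. Pomc, part of this mean, was dim, above the array median on 0 arrays. It was at 5.53 on array 4, against 5.54 to 6.17 on the other arrays, and so hardly differed there. Markers of the neighbouring ventromedial nucleus (5 of 7 measured) were at 2.71, against -0.49 to 0.51 on the other recuperated and -0.36 to 0.95 on the control arrays. Tanycyte and ependymal markers (6 of 7) were at 1.37, against 2.80 to 3.13 on the other recuperated and 2.34 to 3.02 on the control arrays. Among these, Col25a1 went the other way and had its highest value of all 12 arrays (11.52) on array 4, and Dio2 was lowest on control array 5. Microglial markers (5 of 5) were at 0.74, against 1.14 to 1.55 on the other recuperated and 1.26 to 1.71 on the control arrays, though Cx3cr1 and Itgam were not at their lowest on array 4. Array 4 was also the highest of all 12 for general neuronal markers (5 of 5), at 5.54 against 4.60 to 5.00 on the other recuperated and 4.82 to 4.98 on the control arrays, and for oligodendrocyte markers (5 of 6), at 3.94 against 3.31 to 3.59 on the other recuperated and 3.53 to 3.77 on the control arrays. Of the genes in the neuronal and oligodendrocyte means, Tubb3, Mag and Cnp were not at their highest on array 4. Its mean astrocyte (4.59) and endothelial (0.69) levels lay within the range of the other recuperated arrays, but single genes did not. On array 4 the astrocyte gene Gfap had its lowest value of all 12 arrays (11.38) and Slc1a2 its highest (11.04). The endothelial gene Flt1 also had its highest value there (6.84). Recuperated array 5 lay within the range of the other recuperated arrays for ARC neuron and ventromedial markers (3.40 and -0.24), and its microglial level was 1.14, the second lowest. The 3′ minus 5′ signal of actin, a sign of RNA breakdown or short amplification products, was 1.04 to 1.96 log2 units in recuperated and 1.25 to 1.72 in control arrays, and array 4 had the highest value. The same measure of Gapdh was 1.77 to 2.63 in recuperated and 1.49 to 2.50 in control arrays, and array 4, at 1.84, was within both ranges. Array medians before subtraction were 6.23 to 6.30 in recuperated and 6.21 to 6.27 in control arrays. The part of any of these in the members' values was not tested.

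Of the 73 members, 18 had more than 1 probe set, which measure different stretches of a transcript. The 3 probe sets of Mrpl37 had log2 differences of 0.19, 0.22 and 0.21, and the 4 of Mrpl51 lay between -0.19 and 0.02. For Mrps2 they disagreed in sign, with 0.19 ± 0.16 (SE) for the brightest probe set and -0.26 ± 0.25 and -0.32 ± 0.23 for the others, all above the array median on 12 arrays. Mrps22 had the largest spread, -0.06 ± 0.18 for the brightest and 0.75 ± 0.31 for the other, the only member probe set past 1.3-fold with P under 0.05 (limma p = 0.0297, exact permutation p = 0.0628). That probe set averaged 4.86 ± 0.49 in recuperated and 4.08 ± 0.72 in control arrays (SD, n = 6 each) and was above the array median on 0 arrays, so its signal was dim. Mrps27 (-0.08, -0.52 and -0.10) and Mrps15 (-0.02 and 0.31) likewise differed most in probe sets that were at most on 1 array above the median. Which of these probe sets follows the protein-coding transcript was not tested.

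**Figure D4:**
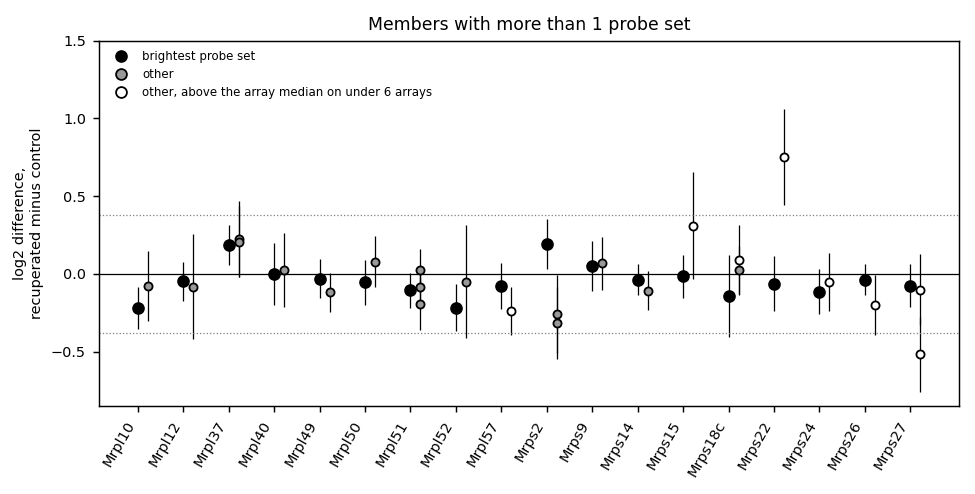
Log2 difference (recuperated minus control, n = 6 each) with its SE for every probe set of the 18 members with more than 1. Black points are the brightest probe set, grey points others, and open points others above the array median on under 6 arrays; dotted lines mark 1.3-fold. The dim probe set of Mrps22 (0.75) and that of Mrps27 (-0.52) lie farthest from 0.

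Detection was a feature the members shared. The brightest probe set was above the array median on all 12 arrays for 71 of 73 members, with Mrpl14 and Mrpl38 above it on 10, against 40.3% of all probe sets and 53.5% of the brightest probe sets of all symbols. Cytosolic ribosomal proteins (88.4%) and subunits of oxidative phosphorylation (90%) also had high shares, so this detection was not particular to the members. Brightness of a probe set also depends on its probes, so levels were not compared between members.

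Other parts of mitochondrial translation gave differences of similar size. Mitoribosomal proteins with other symbols (5 genes) had a median of -0.07, with 4 negative, among them Aurkaip1 (-0.20), while Dap3, of the small subunit, had 0.04. Mitochondrial translation factors (11 of 13 measured) had a median of -0.12, with 7 negative. Mrrf, which releases the ribosome from its message after termination, averaged 6.94 ± 0.26 in recuperated and 7.24 ± 0.30 in control arrays (SD, n = 6 each), a difference of -0.32 ± 0.16 (SE). Tsfm, the exchange factor of the elongation factor Tufm, had -0.25 ± 0.16 and Tufm itself 0.08 ± 0.17.

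The machinery that builds and feeds the ribosome was divided in sign. Assembly and rRNA maturation factors (18 genes) had a median of -0.00 with 9 negative, mitochondrial aminoacyl-tRNA synthetases (13 of 17 measured) 0.01 with 6 negative, and factors of mitochondrial transcription and mRNA stability (11 genes) 0.01 with 5 negative. None of the genes of these lists passed 1.3-fold with P under 0.05. Cytosolic ribosomal proteins (43 genes) had a median of -0.12 with 38 negative and 0 past the threshold, and subunits of oxidative phosphorylation (80 genes), some of whose partners the mitochondrial ribosome makes, had -0.06 with 67 negative and 1 higher past it. Cytosolic ribosomal proteins were also lowest on recuperated array 4, with a median deviation of -0.31, and next on array 5, with -0.13. Their values were -0.03 to 0.04 on the other recuperated arrays and -0.03 to 0.19 on controls. Subunits of oxidative phosphorylation were lowest on recuperated array 5, with -0.14. On array 4 these subunits had -0.03, within the range of the other recuperated arrays (-0.05 to 0.07).

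The promoters shown above were part of a search of all members in the RefSeq table, which held 61 promoters of 59 members, from 250 bases before to 50 after the start. Motifs were searched on both strands as GCGCATGC (NRF1), CCGGAAGT (factors of the ETS family) and AAGATGGCG (YY1). NRF1 matched 8.2% of member promoters and 3.11% of 21842 promoters of all genes, ETS 13.1% of member and 4.78% of all promoters, YY1 13.1% of member and 2.07% of all promoters, and any of the 3 matched 32.8% of member and 9.34% of all promoters. The NRF1 matches were those of Mrpl17, Mrpl22, Mrpl32, Mrpl44 and Mrps18b, and in Mrpl17, Mrpl32, Mrpl44 and Mrps18b 2 of the matches overlap, since the motif nearly reads the same on both strands. The median GC content was 54.4% in member promoters and 54% in all. Mrpl17 and Mrpl32, whose printed sequences each hold 3 such matches, had log2 differences of 0.13 and -0.14, so genes with this motif did not share a sign.

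Head-to-head arrangement, in which the start of another gene on the opposite strand lies within 1000 bases, was found for 17 of 59 members (28.8%) and 7.21% of 18999 protein-coding genes. The pair printed above joins a large and a small subunit gene, Mrpl46 and Mrps11, whose starts are 234 bases apart. Mrpl46 averaged 8.22 ± 0.35 in recuperated and 8.37 ± 0.10 in control arrays, and Mrps11 averaged 6.86 ± 0.39 in recuperated and 6.88 ± 0.11 in control arrays (SD, n = 6 each). On recuperated array 1, Mrpl46 was at its lowest (7.75) and Mrps11 at its highest (7.52). On recuperated array 2 Mrpl46 was at its highest (8.77), with Mrps11 at 6.55, so the pair did not move together on these arrays. Among the control arrays both genes were lowest on array 1, at 8.22 for Mrpl46 and 6.74 for Mrps11. Whether the pair moved together over all arrays was not tested. Mrpl32 shares its stretch with Psma2, a proteasome subunit gene 210 bases away, and the log2 differences were -0.14 ± 0.14 for Mrpl32 and -0.24 ± 0.11 for Psma2 (SE), with an adjusted limma p of 0.999 for both. Mrpl47 faces Ndufb5, a subunit of respiratory complex I, at 244 bases, and their log2 differences were -0.08 ± 0.15 for Mrpl47 and 0.01 ± 0.12 for Ndufb5 (SE). Mrpl18 faces Tcp1, a subunit of the cytosolic chaperonin, at 425 bases, with -0.08 ± 0.15 for Mrpl18 and 0.04 ± 0.10 for Tcp1 (SE).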

How the data were processed

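The authors deposited log2 expression values of 31099 probe sets on 12 arrays. RMA, which made them, corrects background, gives all arrays the same distribution and summarises the probes of a probe set. Affymetrix Expression Console stands for this step in the submitters' processing notes, whereas the methods name GeneSpring GX, with no version for the RMA step in the notes. Equal distributions hide a shift of all genes, and arrays give no read depth, so the number of arrays limits the precision.

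From these values, 57 control probe sets were set aside, each array's median was subtracted, as the methods centre each chip, and groups were fitted with limma 3.58.1 (lmFit and eBayes, R 4.3.3) over 31042 probe sets with Benjamini-Hochberg adjustment. For single members an exact permutation test (two-sided, 924 arrangements of the arrays) was added, and 0.00216 is the smallest p it can give. Of the probe sets, 20826 carried 1 symbol in the platform annotation, 436 several and 9780 none. Promoters and neighbours are from RefSeq (GRCr8). All 73 members matched its gene identifiers and 59 its promoter table. The fit was tested on simulated data. Of 50 simulated probe sets changed by 0.5 log2 units, 8 were recovered at an adjusted p under 0.05 by limma. At 1.3-fold with P under 0.05, 35 of these 50 were recovered. Changes of that size would thus mostly be missed after adjustment. Python 3.11.15, numpy 2.4.6, pandas 2.3.3, scipy 1.17.1 and matplotlib 3.10.9 were used.

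The members and lists were chosen with earlier results of these data known. Members were named by a rule: those past the threshold or with ranges apart, the 5 most positive and 5 most negative of each subunit, the 2 with the largest and smallest spread, the 5 with the widest spread between probe sets, and those whose symbol does not tell their place, 30 in all. Mrpl14, Mrpl18, Mrpl22, Mrpl32, Mrpl38, Mrpl44, Mrpl46, Mrpl47, Mrpl51, Mrpl53, Mrps11 and all genes that are no members were chosen after their values were seen. Alternatives were no median subtraction, quantile normalization, the methods' t-test, array weights, leaving out dim probe sets, a replicate block, the mean of all probe sets, folds from linear means, subunits by structure and leaving out each array.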

Additional observations from a re-analysis of the deposited data

Results flagged for a closer look

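For 5 of 64 groups of 6 arrays (named members and subunit medians in each group), 1 array lay farther from the rest than Dixon's limit at the 95% level allows. Chance gives about 1 in 20 for groups taken without regard to their values, a rate that does not apply here, since many of the named members were picked for a large difference or spread. Mrpl3 was at 8.27 on recuperated array 5, against 8.98 to 9.38 on the other recuperated arrays. Mrpl10 was at 8.32 and Mrps22 at 8.01 on the same array, against 8.81 to 9.08 and 9.01 to 9.22. Mrpl52 was at 8.34 on recuperated array 4, against 8.84 to 9.01. In controls, Mrps9, a bacterial-type protein of the small subunit, was at 8.32 on array 6, against 8.92 to 9.26 on the other control arrays.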

How the results depend on the processing

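The count of members past the threshold was 0 under every alternative other than leaving out an array, and 0 to 1 with each array left out (Mrpl42 at 0.41 without control array 3, Mrpl34 at -0.46 without recuperated array 1). No member had an adjusted p under 0.05 in any setting. Negative members numbered 43 to 58 over all settings, while 52.1% to 61.1% of all probe sets were negative. Without subtraction of array medians the medians were -0.06 for Mrpl and -0.02 for Mrps genes.

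Of 600 values of 30 named members under alternatives, 34 had the sign turned and 2 passed the threshold. Near 0, the sign turned for Mrps15 (0.005), Mrps18b (0.0033) and Mrps25 (0.01) without median subtraction, for Mrps25 (0.0016) under quantile normalization, and for Mrps15 (0.015), Mrps18b (0.0012) and Mrps22 (0.0018) with array weights. When all probe sets of a gene were averaged, Mrps2 was at -0.13, Mrps15 at 0.15 and Mrps22 at 0.34. Leaving out each array in turn gave -0.066 to 0.067 for Mrps15, -0.0423 to 0.0117 for Mrps25, -0.0853 to 0.0447 for Mrps18b, -0.0103 to 0.198 for Mrpl48, -0.0273 to 0.132 for Mrps30, -0.0787 to 0.161 for Mrps17, -0.00667 to 0.115 for Mrps31, -0.0657 to 0.115 for Mrps9, -0.0147 to 0.0773 for Mrps18a, -0.287 to 0.00333 for Mrpl36 and -0.118 to 0.11 for Mrps22. The cause was not tested.

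Same-numbered arrays of the groups correlated between -0.16 and 0.08 over probe sets, on deviations from the group means. The labels do not say whether the numbers mark pairs, and a weak pairing could give such values, so they do not decide it. With the replicate block, 0 members passed the threshold, 56 were negative and Mrpl42 had a limma p of 0.084.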
